A study of Mus musculus with 23 samples.

Results

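The 8 genes described here encode the sweet and umami receptor subunit Tas1r3, the bitter receptors Tas2r109, Tas2r113, Tas2r118 and Tas2r131, and the signaling proteins Gnat3, Plcb2 and Trpm5, out of 36161 gene names on the array. They were found by symbol among the spots of 23 one-color Agilent arrays, where 9 probes carry their names. The 5 receptors were selected on their higher signal in the frontal cortex of mice with access to chocolate, so their frontal cortex values are a description and carry no test. The signaling genes were included to see whether the receptors' partners were also present.

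Tas1r and Tas2r proteins are receptors on the surface of taste cells that bind sugars, amino acids or bitter compounds. In a taste cell the bound receptor activates a G protein containing gustducin, the product of Gnat3, which acts on the phospholipase encoded by Plcb2. The calcium that is then released opens the cation channel Trpm5 and depolarizes the cell. Members of this cascade are also known from chemosensory cells of the airway and gut and have been described in brain.

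The study compared female C57BL/6 mice kept on standard chow (SC mice, the lean group) with mice given a choice of diets for 8 weeks. The latter had a free choice of the same chow and a chocolate mixture (CM mice, the obese group). The labels give an age of 5 weeks for all of them, which the study states as their age when the experiments began. The regions dissected were the frontal cortex (FC), the striatum (ST) and the hypothalamus (HT), taken after a battery of behavioral tests that both diet groups underwent. During its test of limited access to chocolate, the study also gave SC mice the chocolate mixture. There were 4 arrays for each of SC FC, SC ST, SC HT, CM ST and CM HT and 3 for CM FC, and a mouse contributed up to 3 regions. Mice are called by the number in their label, so SC 52 and CM 52 are different animals. The labels call the third region both thalamic and hypothalamic.

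The arrays lay on 3 slides, numbered here in the order of the files. All 4 CM ST arrays were on slide 1, all 4 CM HT arrays on slide 2 and all 3 CM FC arrays on slide 3. The SC FC arrays of mice 54, 56 and 58 were on slide 1 and that of mouse 52 on slide 2. The SC HT arrays of mice 52, 54 and 56 were on slide 3 and that of mouse 58 on slide 2. The SC ST array of mouse 52 was on slide 1, those of mice 54 and 56 on slide 2 and that of mouse 58 on slide 3. No SC FC array therefore shared a slide with a CM FC array, and diet and slide cannot be told apart within FC.

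Between 36432 and 39008 spots per array were marked by the scanner software as well above background on slide 1, between 37828 and 41191 on slide 2 and between 39380 and 42261 on slide 3. Summed markers were compared with the region names. The 6 striatal markers summed to a log2 signal of 16.82 to 18.13 in ST against 12.30 to 15.25 elsewhere, and 5 cortical markers to 12.91 to 13.81 in FC against 8.92 to 10.05 in HT and 9.28 to 13.09 in ST, where they overlapped FC. Hypothalamic markers (9) and thalamic markers (5) were both highest in HT, at 14.56 to 18.17 and 14.42 to 15.69. Single arrays stood apart, since the cortical sum reached 13.09 in SC ST of mouse 54 (median of ST 11.59), the hypothalamic sum reached 16.55 in SC ST of mouse 52 (median of ST 11.45), the olfactory epithelium sum 13.54 in SC FC of mouse 54 (median of FC 9.94) and the choroid plexus sum 18.27 in CM ST of mouse 58 (median of ST 13.38). Their part in the results was not tested, and the main calls are also given without these arrays.

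The sequences that detect the bitter receptors are shown because each of these values rests on a single probe of 60 bases. The first 3 below are the final 60 bases of intronless genes of 951, 930 and 933 bases in RefSeq and end on the stop codon. The probe of Tas2r118 lies inside its gene of 900 bases. Tas2r117, which was not among the selected genes, is shown since it was the other bitter receptor well above background on every array. Capitals mark the longest run that the Tas2r109 and Tas2r113 probes share, CTCTCTCTCTG.
Tas2r109: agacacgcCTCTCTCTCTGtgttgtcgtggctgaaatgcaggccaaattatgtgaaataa
Tas2r113: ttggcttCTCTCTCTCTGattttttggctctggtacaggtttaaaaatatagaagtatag
Tas2r131: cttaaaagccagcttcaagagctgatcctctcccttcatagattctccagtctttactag
Tas2r118: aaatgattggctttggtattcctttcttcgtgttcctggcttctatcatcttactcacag
Tas2r117: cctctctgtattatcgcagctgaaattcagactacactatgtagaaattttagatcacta

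On the mm9 build the probes lie on chromosome 6, at chr6:132930033-132930092 on the minus strand for Tas2r109, chr6:132843899-132843958 on the plus strand for Tas2r113 and chr6:132906930-132906989 on the minus strand for Tas2r131. These 3 probes fall within 86194 bases, a stretch that holds 5 bitter receptor genes with probes. Tas2r118 lies apart at chr6:23919457-23919516 on the minus strand. Tas1r3 is on chromosome 4, at chr4:155234018-155234077 on the minus strand, and was the only one of the 8 genes whose RefSeq locus overlapped another gene, Dvl1. The overlap was read from the RefSeq table's own build. Gnat3 is probed at chr5:17525427-17525486 on the plus strand, Plcb2 at chr2:118542766-118542825 and chr2:118533330-118533389 on the minus strand, and Trpm5 on the minus strand of chromosome 7.

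Tas1r3, the subunit common to the sweet and umami receptors, was well above background on all 23 arrays. In the chow-fed frontal cortex its normalized log2 signal was 6.96, 6.995 and 7.29 in mice 54, 56 and 58 and 7.76 in mouse 52, whereas the CM FC arrays read 8.32, 8.42 and 8.41. Every CM FC value thus exceeded every SC FC value, and the highest of the SC FC values came from the array on slide 2. In ST the SC arrays read 7.14 in mouse 52 and 7.79, 7.98 and 8.06 in mice 54, 56 and 58, and the CM arrays 7.01, 6.98, 7.31 and 7.38. The SC ST array on slide 1 lay among the CM arrays, which were all on that slide, and the SC ST arrays of the other slides lay above them.
In HT the SC arrays read 8.14, 8.15 and 8.30 on slide 3 and 7.80 on slide 2, and the CM arrays 7.80, 7.82, 7.82 and 7.79, all on slide 2. The SC HT array on slide 2 was again level with the CM arrays beside it. Ordered by group mean with its SD, Tas1r3 was highest in CM FC (8.38 ± 0.06, n = 3) and then SC HT (8.10 ± 0.21, n = 4), CM HT (7.81 ± 0.01, n = 4), SC ST (7.74 ± 0.42, n = 4), SC FC (7.25 ± 0.37, n = 4) and CM ST (7.17 ± 0.21, n = 4). Ranges of neighbors in this order overlapped except those of CM FC and SC HT.

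Tas2r109, a bitter receptor of the chromosome 6 cluster, was well above background on every array. In SC FC it read 8.08, 8.43 and 8.61 in mice 54, 56 and 58 and 10.10 in mouse 52, and in CM FC 9.77, 9.95 and 9.52. The single SC FC array outside slide 1 was therefore above all CM FC arrays. In ST the SC arrays read 8.24 in mouse 52 and 9.98, 9.63 and 9.87 in mice 54, 56 and 58, and the CM arrays 8.52, 8.33, 8.43 and 8.05. The low SC value came from the slide that held the CM arrays, and it lay inside their range.
In HT no array was low, with 9.99, 9.95, 9.91 and 10.07 in SC mice 52 to 58 and 9.85, 9.88, 10.07 and 9.86 in CM mice 52 to 58. Mean levels were 9.98 ± 0.07 in SC HT, 9.92 ± 0.10 in CM HT, 9.75 ± 0.21 in CM FC, 9.43 ± 0.81 in SC ST, 8.81 ± 0.89 in SC FC and 8.33 ± 0.20 in CM ST (SD, n = 4, or 3 for CM FC), and all neighbors in this order overlapped. The large SDs of SC FC and SC ST belonged to the groups that were spread over slide 1 and other slides.
The gap was present in the spot brightness before normalization, where the median pixel intensity of the Tas2r109 spot was 251.5 to 363 on slide 1, 833 to 1285 on slide 2 and 765.5 to 1116 on slide 3.

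Tas2r113, encoded near Tas2r109, was also well above background on every array and had nearly the same profile. It read 7.01, 6.98 and 8.07 in SC FC on slide 1, 9.16 in the SC FC array on slide 2 and 8.91, 9.10 and 8.45 in CM FC. The slide 2 array was the highest of these 7 arrays. In ST the SC values were 7.38 in mouse 52 and 9.15, 8.48 and 9.02 in mice 54, 56 and 58, and the CM values 7.69, 7.40, 7.68 and 7.21. Again only the SC ST array on slide 1 fell among the CM arrays. In HT it ranged from 8.29 to 8.91 in SC and from 8.35 to 8.91 in CM mice. Group means ran from 8.82 ± 0.34 in CM FC (SD, n = 3) to 7.496 ± 0.23 in CM ST (n = 4), with SC FC at 7.81 ± 1.04 (n = 4), and neighbors in the order overlapped.

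Tas2r118, a bitter receptor outside the cluster, lay near the detection limit. It was well above background on 0 of 8 arrays of slide 1, 6 of 8 of slide 2 and 7 of 7 of slide 3. It read 4.69, 4.73 and 4.42 in SC FC on slide 1, 5.05 in SC FC on slide 2 and 6.13, 5.93 and 5.64 in CM FC. The CM FC arrays were above every SC FC array, none of which measured the gene well above background. In ST the SC values were 4.85 in mouse 52 and 5.27, 5.08 and 5.84 in mice 54, 56 and 58, and the CM values 4.86, 4.76, 3.71 and 4.64, so only 3 SC arrays and no CM array detected it. In HT it read between 5.15 and 6.01 in SC and between 5.01 and 5.60 in CM mice, and neighboring groups overlapped from CM FC (5.90 ± 0.25, SD, n = 3) down to CM ST (4.49 ± 0.53, n = 4).

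Tas2r131, also from the cluster, was well above background on 20 of 23 arrays, with the 3 exceptions in SC FC on slide 1. Those arrays read 5.07, 4.85 and 5.06, the SC FC array on slide 2 read 5.83 and the CM FC arrays 6.06, 6.26 and 6.05. All CM FC arrays were above all SC FC arrays. In ST it ranged from 5.39 to 6.18 in SC and from 5.12 to 5.65 in CM mice, and in HT from 5.55 to 6.34 and from 5.54 to 5.79, so the diets overlapped in both regions. CM FC had the highest mean (6.13 ± 0.12, SD, n = 3) and SC FC the lowest (5.20 ± 0.43, n = 4), with overlap between neighbors.

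**Figure D1:**
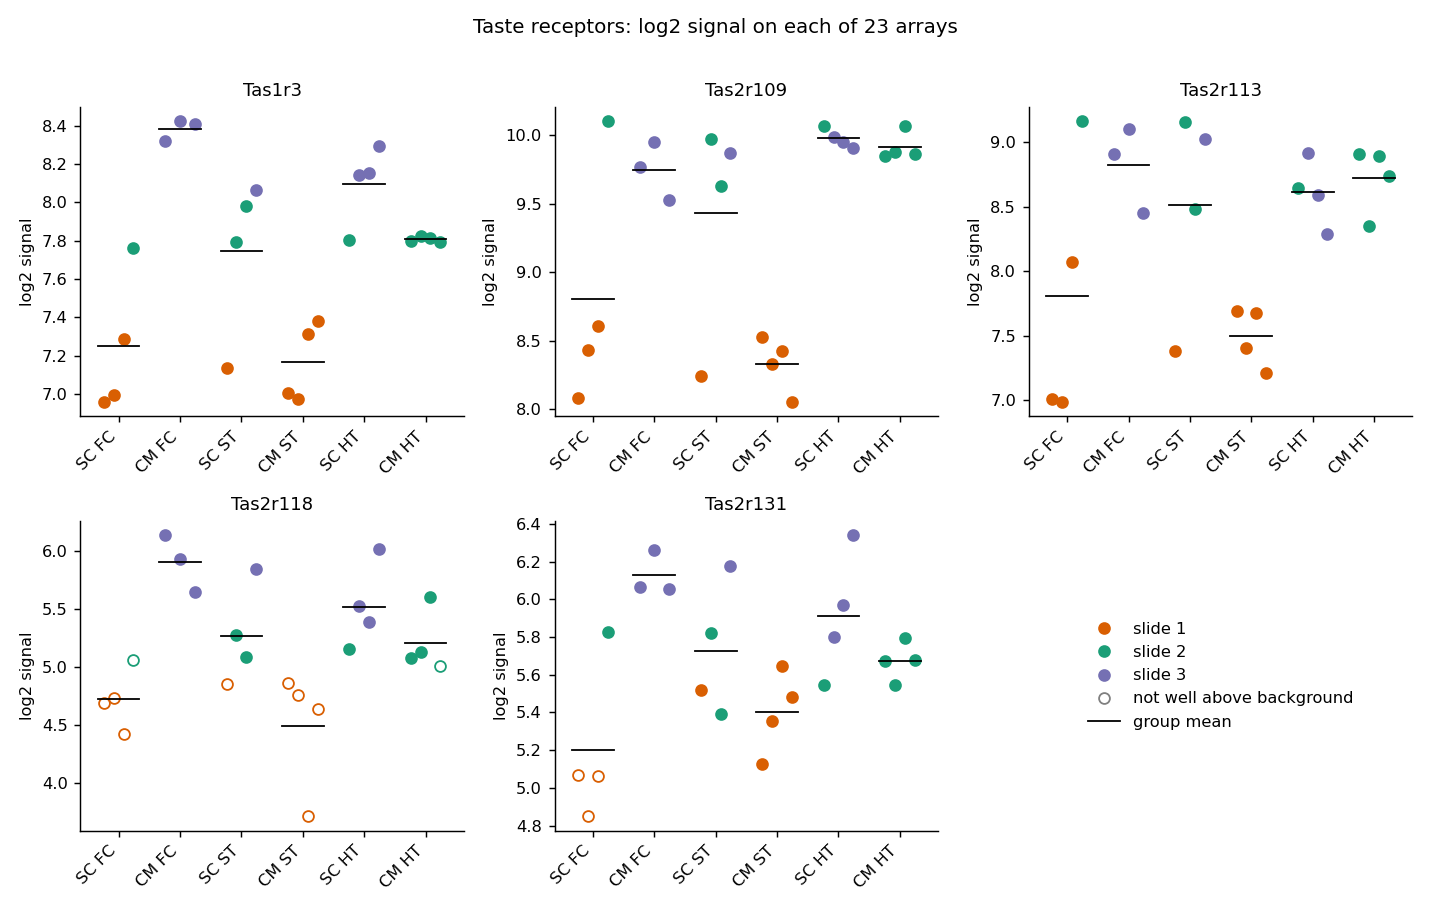
Normalized log2 signal of the 5 selected receptors on each of 23 arrays, with 1 panel per gene and the arrays arranged by diet and region. Color gives the slide, open symbols mark arrays on which the probe was not well above background and bars give group means. For Tas1r3, Tas2r109, Tas2r113 and Tas2r118 every slide 1 array lies below every array of slides 2 and 3, and within SC FC and SC ST the arrays split by slide.

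Fitted in FC over all arrays, the CM minus SC difference was 1.23 (SE 0.14) on the log2 scale for Tas1r3, 1.17 (SE 0.23) for Tas2r109, 1.30 (SE 0.31) for Tas2r113 and 1.07 (SE 0.18) for Tas2r131. For Tas2r118 the SC FC arrays gave only a bound, and its mean of 5.90 in CM FC against 4.72 in SC FC amounted to at least 2.26-fold. These values describe the contrast the genes were chosen on. Every CM FC array exceeded every SC FC array for Tas1r3, Tas2r118 and Tas2r131, 3 of the 5 receptors, as it did for 13.2% of all 31395 identifiers tested, and nothing is read from this share. In a model with slide terms (the slide as a fixed block), the FC differences were 0.31 (SE 0.20) for Tas1r3, -0.24 (SE 0.27) for Tas2r109, -0.13 (SE 0.49) for Tas2r113, 0.30 (SE 0.57) for Tas2r118 and 0.10 (SE 0.33) for Tas2r131. No SC FC array was on slide 3, so that fit took the slide 3 effect from SC ST and SC HT arrays. It assumes the same slide effect in every region, and its FC values are not diet differences freed of the slide. The fit called 0% of all identifiers in FC. Without the SC FC array of mouse 54 the original differences were 0.99 to 1.23 over the 5 receptors.

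Striatum and hypothalamus arrays were not used in the selection of the receptors and were tested. The selection contrast set slide 3 against mostly slide 1, and all CM ST arrays lay on slide 1. A choice of probes that are dim on slide 1 would also give lower CM ST values, so the ST tests are not independent of the selection. In ST, 6.37% of identifiers were lower and 3.45% higher in CM mice (limma, adjusted p under 0.05). Tas2r109 was lower by 1.19 on the log2 scale (SE 0.25, 2.28-fold, adjusted p = 0.0079) and Tas1r3 by 0.68 (SE 0.15, 1.60-fold, adjusted p = 0.0103). These 2 of the 7 genes that could be fitted passed. Tas2r113 differed by -1.01 (SE 0.34, adjusted p = 0.0642), Tas2r131 by -0.20 (SE 0.20, adjusted p = 0.559) and Plcb2 by -0.27 (SE 0.14, adjusted p = 0.237), and did not pass. Tas2r118 had means of 5.26 in SC ST and 4.49 in CM ST, where no array measured it. Those means put it at least 1.52-fold lower in CM ST, but the difference did not pass (adjusted p = 0.126). The SC ST array on slide 1 (4.85) did not measure it either. Both calls were lost without array weights (adjusted p = 0.0695 for Tas2r109 and 0.0711 for Tas1r3) and when ST arrays alone were fitted (0.0673 and 0.078). The direction in ST, toward CM mice being lower, was opposite to that in FC.

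The ST arrays of both genes were split by slide, as given above. In the model with slide terms the ST difference became 0.18 (SE 0.18) for Tas2r109 and 0.00 (SE 0.14) for Tas1r3, both at an adjusted p of 1, and 0% of all identifiers passed. Within slide 1 the SC ST array read 8.24 for Tas2r109 against 8.05 to 8.52 in the 4 CM ST arrays, and 7.14 for Tas1r3 against 6.98 to 7.38. With this 1 SC array as the only control the fitted differences were 0.10 for Tas2r109 and 0.01 for Tas1r3, values that have no replicate of the SC arm. That array is the one with high hypothalamic markers, and without it the difference across slides was -1.44 (adjusted p = 0.000796) for Tas2r109, -0.75 (adjusted p = 0.00352) for Tas1r3 and -1.30 (adjusted p = 0.023) for Tas2r113. Without the CM ST array of mouse 58 it was -1.12 (adjusted p = 0.0158) for Tas2r109, -0.71 (adjusted p = 0.0135) for Tas1r3 and -0.94 (adjusted p = 0.105) for Tas2r113. Without the SC ST array of mouse 54 it was -1.14 (adjusted p = 0.00317) for Tas2r109 and -0.75 (adjusted p = 0.00232) for Tas1r3.

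In HT, where 0.43% of identifiers passed in either direction, none of the 7 genes passed in limma, and Tas1r3 and Tas2r131 had an unadjusted p under 0.05. Tas1r3 differed by -0.34 (SE 0.12, adjusted p = 0.182), Tas2r131 by -0.36 (SE 0.15, adjusted p = 0.297), Tas2r118 by -0.39 (SE 0.23, adjusted p = 0.493) and Tas2r113 by 0.17 (SE 0.26, adjusted p = 0.849). For Tas2r109 the HT difference was -0.03, with a 95% interval from -0.43 to 0.37. The test of whether the diet difference was the same in ST and HT called 0% of identifiers, and for Tas2r109 the ST difference was 1.16 lower than that in HT (SE 0.32, adjusted p = 0.0832). It passed without the SC ST array of mouse 52, 54 or 56 (adjusted p = 0.0118, 0.0475 and 0.0468) and did not without the CM ST array of mouse 58 (adjusted p = 0.117). With slide terms it turned to 0.23 (SE 0.27, adjusted p = 1).

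**Figure D2:**
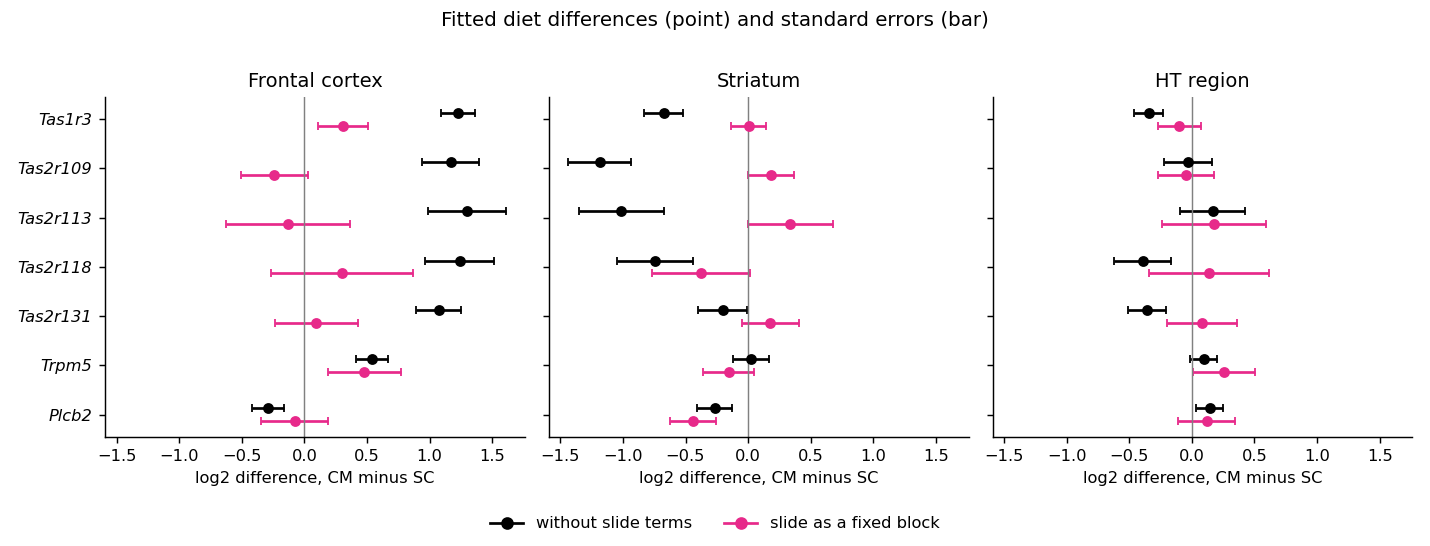
Fitted CM minus SC difference in log2 signal (points) with its SE (bars) for the 7 genes that could be fitted, in FC, ST and HT, from the model without slide terms (black) and from that with a fixed slide block (magenta). Without slide terms the 5 receptors lie above 0 in FC, and Tas2r109 (-1.19) and Tas1r3 (-0.68) lie below 0 in ST, whereas with them the receptors lie between -0.38 and 0.34 in all regions. Trpm5 was well above background on no array, so its points are differences in signal only.

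Slides were also compared directly, in the 16 ST and HT arrays with region and diet in the model. Slide 3 minus slide 2 called 0% of identifiers in limma, and 5 of the 38 taste identifiers had an unadjusted p under 0.05. The comparisons with slide 1 were added after the values had been seen. Slide 2 exceeded slide 1 by 1.58 for Tas2r109, 1.53 for Tas2r113 and 0.72 for Tas1r3. Slide 3 exceeded slide 1 by 1.55, 1.56 and 1.02 in the same order of genes. The slide 1 arrays in this model are 4 CM ST arrays and the SC ST array of mouse 52. The CM ST group mean takes up all CM ST arrays, which lay on no other slide. The comparisons with slide 1 therefore rest on the SC ST array of mouse 52, the one with high hypothalamic markers. They are given as sizes only.

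Over all regions, every array of slides 2 and 3 exceeded every array of slide 1 for 4 of the 7 genes, Tas1r3, Tas2r109, Tas2r113 and Tas2r118, and for 5.21% of identifiers. This count includes the FC arrays on which the receptors were selected, and nothing is read from it. Within ST, whose arrays the selection did not use, the same 4 genes showed this, beside 13.4% of identifiers. The selection set slide 3 against mostly slide 1 in FC, so this count is not independent of it either, and nothing is read from it. Tas1r3 spanned 6.96 to 7.38 on slide 1, 7.76 to 7.98 on slide 2 and 8.06 to 8.42 on slide 3, whatever the region or diet. Tas2r109 spanned 8.05 to 8.61 on slide 1 and 9.52 to 10.10 on the others. The corresponding ranges were 6.98 to 8.07 and 8.29 to 9.16 for Tas2r113, and 3.71 to 4.86 and 5.01 to 6.13 for Tas2r118. Tas2r131 overlapped, with 4.85 to 5.65 on slide 1 and 5.39 to 6.34 on the others.

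The probes of Tas2r109 and Tas2r113 share the 11-base run shown above, which was looked for after their values had been seen. It occurs in 12 of 55681 probe sequences (0.0216%), and its reverse complement CAGAGAGAGAG in 10 (0.018%). All 12 probes passed the filter on dim spots. In 8 of these 12 (66.7%) every slide 1 array was below every other array, compared with 5.35% of 43889 probes that passed the filter. Leaving out the 8 genes, 10 probes with the run remained, and 6 of them showed this over all arrays (5.35% of probes) and 9 within ST (13.1%). One of these, for the orphan receptor gene Gpr157, chosen after its values were seen, read 11.48 to 12.12 on slide 1 and 12.69 to 13.42 on the others. The probe of the endothelial nitric oxide synthase gene Nos3, with 10.76 to 11.09 and 10.69 to 11.12, did not show it. Tas1r3 and Tas2r118 had the slide difference without the run.

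The genes whose signal was most like that of each receptor over the 23 arrays were outside the taste list. For Tas2r109 they were 5730494M16Rik (Pearson r = 0.978), the olfactory receptor gene Olfr1252 (r = 0.972) and the cadherin gene Cdh26 (r = 0.972), and for Tas2r113 the olfactory receptor gene Olfr1466 (r = 0.978), Nudt5 (r = 0.97) and the histamine receptor gene Hrh4 (r = 0.964). For Tas1r3 they were Lhb, a luteinizing hormone subunit (r = 0.98), Slc16a12 (r = 0.961) and C1rl (r = 0.961). For Tas2r118 they were Olfr945 (r = 0.930), Olfr470 (r = 0.924) and P2rx1 (r = 0.914), and for Tas2r131 A930002H24Rik (r = 0.930), Gm4461 (r = 0.922) and Slc10a7 (r = 0.914). For Trpm5, the highest were Fgf15 (r = 0.764), Olfr1427 (r = 0.74) and Pdzk1ip1 (r = 0.734), and for Plcb2 Eif2a (r = 0.775), Pde4dip (r = 0.737) and Col11a2 (r = 0.728). Among the selected receptors r ran from 0.643 for Tas2r113 with Tas2r118 to 0.935 for Tas2r109 with Tas2r113. The arrays share slides, regions and mice, so these are descriptions.

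The signaling partners were faint or undetected. Gnat3, the alpha subunit of gustducin, was well above background on 0 of 23 arrays, with log2 signals from 2.03 to 4.26, and did not pass the filter on dim spots. In FC it read 3.52, 2.38 and 3.17 in SC mice 54, 56 and 58, 2.84 in SC mouse 52 and 3.92, 3.93 and 4.04 in the CM mice. All of these are below the range in which the array measures a level, so no fold is given. In whole tissue, fewer cells of a type and less RNA per cell cannot be told apart, and a few cells with the gene in a dissected region would also go unseen.

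Trpm5, the cation channel at the end of the cascade, was likewise well above background on 0 of 23 arrays, with signals of 3.84 to 4.61. It passed the filter on dim spots only with the CM FC arrays counted. Its signal read 3.99, 3.84, 3.93 and 4.07 in SC FC and 4.47, 4.38 and 4.61 in CM FC. The groups did not overlap, and this difference in signal passed in limma (adjusted p = 0.00469, and 0.0154 without the SC FC array of mouse 54). Neither group measured the gene well above background, so no size is given and the call is not read as a change in level. Among all identifiers, 15.4% were higher and 13.2% lower in CM FC. It did not pass with slide terms (adjusted p = 0.809), nor did the signal in ST (adjusted p = 0.944) or HT (adjusted p = 0.78).

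Plcb2, the phospholipase of taste cells, has 2 probes, and they were well above background on 9 and 14 of 23 arrays. The upstream probe spanned 4.204 to 5.66 and the downstream probe 4.61 to 5.71, and slide means were 4.97, 5.03 and 4.76 for the former and 5.29, 5.04 and 5.01 for the latter on slides 1, 2 and 3. With the probes averaged, Plcb2 differed between diets by -0.29 in FC (SE 0.13, adjusted p = 0.095) and by 0.14 in HT (SE 0.11, adjusted p = 0.617). On the upstream probe in ST, where 3 SC arrays and no CM array were above background, the means of 5.31 and 4.85 put that probe at least 1.37-fold lower in CM ST, although CM mouse 56 (5.30) lay above SC mouse 54 (5.08). The downstream probe, above background on 4 SC and 2 CM arrays of ST, had means of 5.43 and 5.26, so the probes disagreed in size. Over the arrays Plcb2 correlated negatively with each selected receptor (r from -0.467 to -0.306).
In chow-fed mice Plcb2 was 0.49 lower in HT than in ST (SE 0.15, 1.41-fold, adjusted p = 0.0217). SC HT arrays read 4.46 to 5.25 on the upstream and 4.61 to 5.18 on the downstream probe, and SC ST arrays 5.08 to 5.66 and 5.35 to 5.53, so the downstream probe separated the regions and the upstream probe did not. The call was lost with slide terms (adjusted p = 0.186), with mean spot signals (adjusted p = 0.0679), with quantile normalization within regions (adjusted p = 0.148), with the upstream probe alone (adjusted p = 0.255) and without SC HT mouse 54 or SC ST mouse 52 or 56 (adjusted p = 0.058, 0.071 and 0.0704). None of the selected receptors passed in this comparison , in which 10.7% of identifiers were higher and 10.8% lower in HT. With quantile normalization within regions Tas1r3 (0.50 higher in HT, adjusted p = 0.0244) and Tas2r131 (0.65, adjusted p = 0.0231) passed, and Tas2r131 also without the SC ST array of mouse 54 (0.57, adjusted p = 0.0353).

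**Figure D3:**
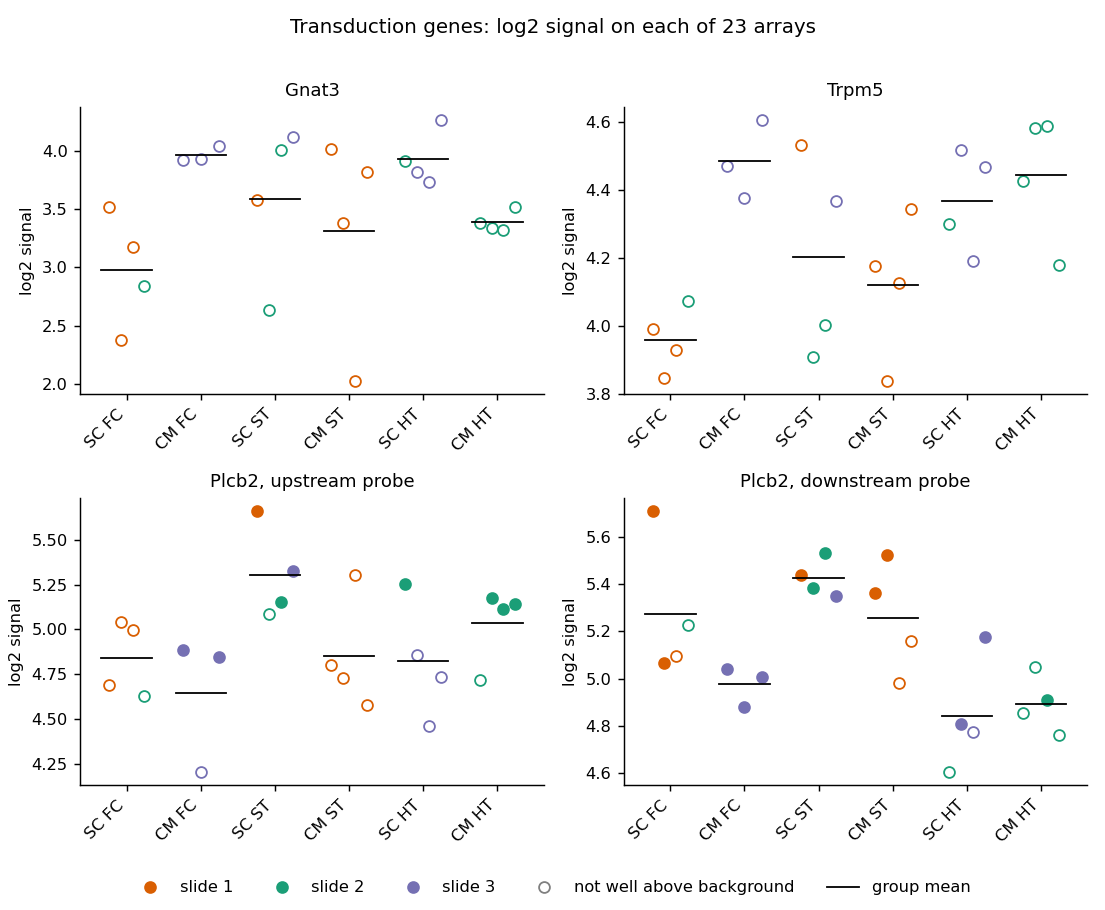
Normalized log2 signal of Gnat3, Trpm5 and both Plcb2 probes on each of 23 arrays, arranged by diet and region, with color for the slide, open symbols for arrays not well above background and bars for group means. No Gnat3 or Trpm5 symbol is filled, and Plcb2 is above background on 9 arrays with the upstream and 14 with the downstream probe.

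Markers of taste and tuft cells overlapped between the diets in every region. Of 3 such genes on the array, the transcription factor gene Pou2f3 was well above background on 11 arrays, the cytokine gene Il25 on 10 and Avil on 3. Their summed log2 signal was 6.30 to 6.60 in CM FC and 6.03 to 6.59 in SC FC, and 6.04 to 6.68 in CM ST and 6.20 to 6.49 in SC ST. In HT it was 6.41 to 6.93 in CM and 6.64 to 6.84 in SC mice. The sum of 4 keratin genes of tongue epithelium stayed between 6.84 and 7.31 in all groups. Krt14 was well above background on 23 arrays and Krt4 on 0. The probes of Krt5 were so on 22 and 0 arrays, and those of Krt13 on 7 and 1. The olfactory epithelium sum was 9.77 to 9.92 in CM FC and 9.94 to 13.54 in SC FC, with a median of 10.07 and the highest value in mouse 54.

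The rest of the receptor family was mostly undetected on these arrays. Of 35 bitter receptor genes with probes, 24 were well above background on 0 arrays and 9 passed the filter on dim spots. Only Tas2r109, Tas2r113 and Tas2r117 were well above background on all 23. In the chromosome 6 cluster that holds Tas2r109, Tas2r113 and Tas2r131, 16 of 24 genes were above background on 0 arrays, so Tas2r109 and Tas2r113 lay among mostly undetected neighbors.
Tas2r117, the other bitter receptor seen on all arrays, spanned 5.17 to 5.79 on slide 1 and 5.28 to 6.29 on the others and so overlapped. Tas2r137 was above background on 12 arrays, Tas2r140 on 11, Tas2r135 on 3 and Tas2r143 on 0. Tas2r110, Tas2r115 and Tas2r123, named after their values were seen, were above background on 1 array each. Of the subunits that pair with Tas1r3, the umami subunit Tas1r1 was above background on 21 arrays, with 4.96 to 6.35 on slide 1 and 5.40 to 6.26 on the others, and the sweet subunit Tas1r2 on 7.

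**Figure D4:**
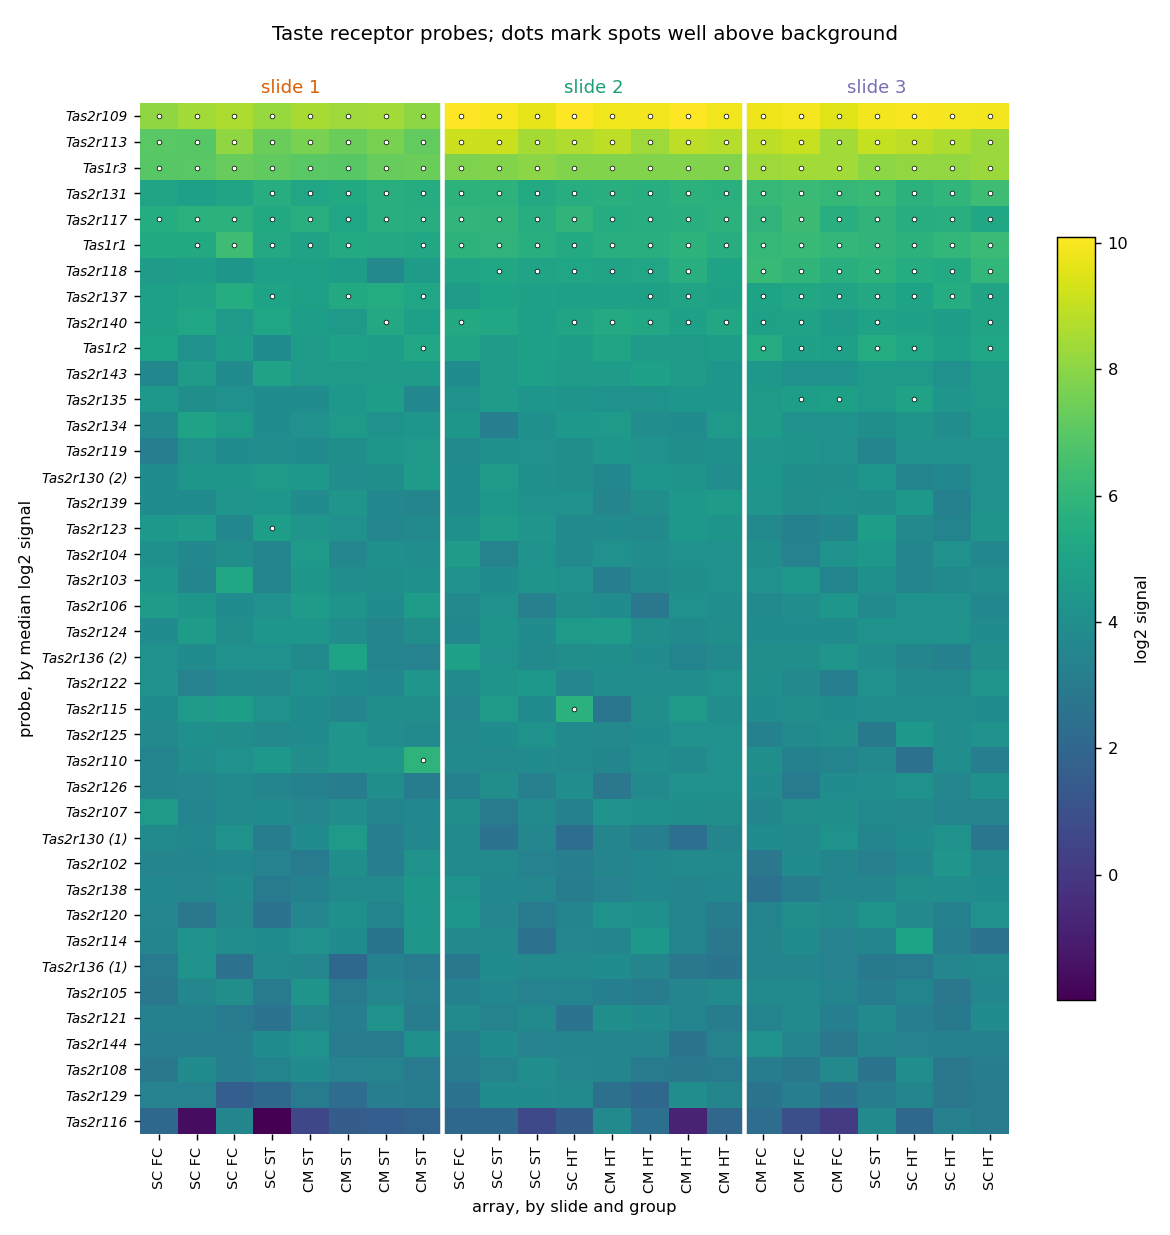
Heat map of the log2 signal of the 40 Tas1r and Tas2r probes (rows, in order of their median) on the 23 arrays (columns, by slide and group), with a color scale for the signal and a dot where the probe was well above background. Most rows carry no dot, and the rows of Tas2r109, Tas2r113 and Tas1r3 are darker over slide 1 than over slides 2 and 3.

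The wider taste pathway was described through 67 genes with probes, of which 37 passed the filter on dim spots and gave 38 identifiers. In FC, 9 of the 33 identifiers other than the selected receptors passed, 5 higher and 4 lower in CM mice, beside 15.4% of all identifiers higher and 13.2% lower. Among those higher, Trpm5 and Tas2r135 passed the filter on dim spots only with the CM FC arrays counted. Processed signals scaled to each array's 75th percentile gave 10 higher and 4 lower. Without the SC FC array of mouse 54, 6 passed, and Car4, Entpd2 and Tas2r135 did not. Their median log2 difference was 0.01 against -0.04 over all identifiers. With slide terms 0 of the 33 passed, beside 0% of all identifiers.
The highest rise was that of Pkd1l3, a channel-like protein of sour taste cells, at 1.095 (SE 0.17, 2.14-fold, adjusted p = 0.000133). It read 6.39 to 6.85 in SC FC on slide 1, 6.98 in SC FC on slide 2 and 7.59 to 7.76 in CM FC. Pkd1l3 was also the other taste gene with every slide 1 array below the rest, at 6.22 to 6.85 against 6.87 to 7.86. The bitter receptor gene Tas2r135 had means of 4.76 in CM FC and 4.201 in SC FC, which put it at least 1.36-fold higher (adjusted p = 0.0424). It was above background on 2 of 3 CM FC and 0 of 4 SC FC arrays. The gene passed the filter on dim spots only with the CM FC arrays counted, so its call is not read as a result. Car4, a carbonic anhydrase used in sensing carbonation, rose by 0.35 (SE 0.13, adjusted p = 0.049), yet the SC FC array on slide 2 (11.59) was as high as the highest CM FC array. The ATP receptor gene P2rx3 lay outside the rule for named genes and was added after its values were seen. It rose by 0.33 (SE 0.09, adjusted p = 0.00687) on 1 of its 2 identifiers. There the SC FC array on slide 2 (7.073) was above the CM FC range of 7.019 to 7.071. The SC FC arrays on slide 1 read 6.531 to 6.746.
The largest fall was in Scnn1a, a subunit of the epithelial sodium channel, by 1.20 (SE 0.26, adjusted p = 0.00206), from 6.97 to 7.94 on SC FC arrays to 6.26 to 6.50 on CM FC arrays. Pkd2l1, the partner channel of Pkd1l3, was at least 1.74-fold lower in CM FC (means 4.32 and 5.17, adjusted p = 0.00293), and the SC FC array on slide 2 (4.07) lay within the CM FC range of 3.92 to 4.60. The adenylyl cyclase gene Adcy8 fell by 0.72 (SE 0.17, adjusted p = 0.00393) and the ATP-degrading ectoenzyme gene Entpd2 by 0.48 (SE 0.13, adjusted p = 0.0121). For Entpd2 the SC FC array on slide 2 (10.62) lay within the CM FC range of 10.58 to 10.75. The partners Pkd1l3 and Pkd2l1 thus differed in opposite directions. Over all identifiers, the diet difference in FC differed from that in ST for 30.1% and from that in HT for 20%.
Downstream of the receptors, Gng13, the gamma subunit that pairs with gustducin, and the calcium release channel gene Itpr3 were well above background on all arrays. Their FC differences were 0.01 (SE 0.11, adjusted p = 0.936) and 0.01 (SE 0.07, adjusted p = 0.928).

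In ST, 2 of 38 identifiers passed, both of them selected receptors and both lower, beside 6.37% of all identifiers, and the median of the list was -0.11 against 0.03 over all identifiers. Leaving out the SC ST array of mouse 52, 54 or 56 gave 7, 6 and 8. In HT 0 of 38 passed in limma with 5 at an unadjusted p under 0.05, beside 0.43% of all, and the median was -0.03 against 0.01. The diet difference in ST against that in HT gave 0 of 38 with 7 at an unadjusted p under 0.05. Between HT and ST of chow-fed mice 11 of 38 passed, 6 higher and 5 lower, beside 10.7% and 10.8% of all, and there were 11 higher and 3 lower when quantile normalization was done within each region, which moved the median of all identifiers from 0.03 to 0.19. The largest of these was Adcy8, 1.70 higher in HT (SE 0.20, 3.24-fold, adjusted p = 3.81e-06).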

How the data were processed

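RNA of 3 brain regions was hybridized to one-color Agilent SurePrint arrays, and the probe positions in the files are those of mm9. Linear spot intensities had been extracted with Feature Extraction 10.7.3.1 per the file headers and were deposited by the authors. A table of log2 values, which the authors had background corrected, quantile normalized, filtered and averaged, was deposited as well. These log2 values were rebuilt here from the median spot intensities for 31395 identifiers and matched the deposited table to within 5.00005e-09. This used R 4.3.3 with limma 3.58.1, the normexp correction with an offset of 0 and quantile normalization of the corrected intensities. A probe was kept if at least 4 arrays exceeded the 95th percentile of their negative controls by a factor of 1.1, and probes of an identifier were averaged.

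The model held 6 group means, with array weights estimated gene by gene and the mouse as a random effect (correlation -0.0398). Tests were moderated by empirical Bayes and adjusted by Benjamini-Hochberg over all identifiers, and a call needed an adjusted p under 0.05. A model with slide terms added the slide as a fixed block. Another compared slides in the ST and HT arrays (correlation within mouse 0.182). The ST contrast of the model without slide terms was tried on simulated data with independent normal noise and no slide or mouse effect. The models with slide terms were not tried on simulated data. Mice with the same number in different diets are different animals, and same-numbered arrays did not deviate together (r -0.321 to 0.136 over 11 pairs), so the number was not used as a pairing. The members and gene lists were chosen with earlier results of these data known. The genes named are the 8 genes, every gene of the taste list past the test in ST, HT or their difference, the 4 largest rises and 4 largest falls in FC other than the selected receptors, and for each of the 7 genes kept by the filter the 3 named genes with the highest r. Where a probe was above background on no array of a group, the fold is a bound against the lowest signal marked well above background on each array. Such a bound compares group means and allows for no sampling error, so it is not a confidence limit. Probe sequences come from the scanner files and gene lengths from the RefSeq table, whose build differs from mm9 and whose coordinates are not given. Alternatives covered the slide, mouse and replicate blocks, array weights, spot signal, offset, scaling, filter, averaging, thresholds, the arrays fitted together and each array left out. The number of arrays limits the precision, and no CM FC array of mouse 52 was among those used here.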

Additional observations from a re-analysis of the deposited data

Results flagged for a closer look

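Of 45 sets of 4 arrays of a group examined for the 9 probes, 2 held an array far from the other 3, and chance gives about 1 in 20. The upstream Plcb2 probe read 4.718 in CM HT of mouse 52 against 5.112 to 5.176 in the other CM HT mice, and Tas2r109 read 10.07 in CM HT of mouse 56 against 9.846 to 9.88.

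Of the 8 taste pathway genes named for their change in FC, the diet difference in FC differed from that in ST for 5 and from that in HT for 5 (limma, adjusted p over all identifiers), beside 30.1% and 20% of all identifiers. Their FC change chose them and enters both differences. These counts and the adjusted p-values below are therefore a description and carry no test. FC minus ST was 1.594 for Pkd1l3 (adjusted p = 0.000123), 0.7941 for Car4 (adjusted p = 0.00459), -0.5916 for Entpd2 (adjusted p = 0.0333), -1.244 for Scnn1a (adjusted p = 0.0218) and -1.573 for Pkd2l1 (adjusted p = 0.00229). FC minus HT was 1.721 for Pkd1l3 (adjusted p = 4.6e-05), 0.8341 for Tas2r135 (adjusted p = 0.0463), -0.6708 for Adcy8 (adjusted p = 0.0419), -1.201 for Scnn1a (adjusted p = 0.019) and -1.357 for Pkd2l1 (adjusted p = 0.00412). Tas2r135 was above background on 0 SC FC and 0 CM HT arrays and Pkd2l1 on 0 CM FC arrays, so their values are differences in signal and not in level. Tas2r135 also passed the filter on dim spots only with the CM FC arrays counted. With slide terms in the model none of these 10 differences passed. That fit called 0% of all identifiers for the diet difference in FC and 0% in ST, and nothing is read from this.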

How the results depend on the processing

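Of the taste identifiers without the selected receptors, 9 passed in FC, against 3 without array weights, 14 with processed signals scaled to the 75th percentile, 0 with slide terms, 1 with a random slide block, 3 at the study's thresholds and 0 without the SC FC arrays of slide 1. In ST, where 2 passed, the count was 4 with 1 value per probe, with REML weights, with an offset of 50 and when probes had to be well above background on 4 arrays, 5 with the 75th percentile, 1 at the study's thresholds and with slide 1 arrays alone (Adcy8), and 0 without weights, with only the region's arrays and with slide terms or a random slide block. In HT, 1 in place of 0 passed (Pkd1l3) with 1 value per probe, mean spot signals, an offset of 50, the well-above-background filter and the 75th percentile. HT against ST of chow-fed mice gave 11, and 7 with slide terms and 5 at the study's thresholds. The ST against HT diet difference gave 0, and 1 with an offset of 50 (Car4) and with only those regions' arrays (Tas2r109), and slide 3 against slide 2 gave 0, and 3 without weights. Leaving out each array gave 6 to 9 in FC, 2 to 8 in ST, 0 to 1 in HT (1 without SC HT mouse 52 or 58), 8 to 13 for HT against ST, 0 to 2 for the ST against HT diet difference (2 without SC ST mouse 52, 54 or 56) and 0 to 1 between slides (1 without SC HT mouse 58). The settings within slide 1, or without it, were chosen after seeing the data.

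Directions turned for Tas2r109 in ST (0.1843 with slide terms, 0.1016 within slide 1), Tas1r3 in ST (0.003962 and 0.005323), and, without slide 1 SC arrays or with slide terms, Tas2r109 in FC (-0.3018 and -0.2394) and Tas2r113 in FC (-0.2895 and -0.1322). With slide terms the ST against HT difference also changed sign, uncalled, for Tas2r109 (0.2347), Tas2r113 (0.1602) and Tas1r3 (0.1028). The cause was not tested. In the replicate block fit the counts were 8 in FC, 3 in ST, 0 in HT, 11 for HT against ST, and 0 and 0 for the diet difference and the slides, and with no replicate block 9, 2, 0, 11, 0 and 0. Of the other values of single genes, 936 kept direction and side of the threshold, 59 changed sign without a call or moved by over an SD, 10 passed newly and 16 no longer passed.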
